A study of Mus musculus with 6 samples.

Results

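Transcript levels of 42 genes of the membrane fusion machinery were compared between wild-type and Kansl1 knockout cells. They comprise SNAREs listed apart from the main set for the fusion of autophagosomes with lysosomes, and the SNAP adaptor proteins. They also include Sec1/Munc18 proteins and other syntaxin-binding proteins that act with these SNAREs. Stx7 is among them, although the study also places it with Ykt6 and Snap29 in a complex for autophagosome-lysosome fusion. Genes were taken by symbol from a deposited expression table of 26898 genes, in which each of the 42 had 1 row, and were grouped by the organelle at which their proteins work. The cells were mouse embryonic fibroblasts (MEFs), connective tissue cells grown directly from mid-gestation embryos of the C57BL/6 strain and sequenced at passage 3. The WT group (samples WT 4, WT 5 and WT 8) was Kansl1fl/fl, meaning that both Kansl1 alleles carry recombination sites. The KO group (samples KO 3, KO 7 and KO 10) was Kansl1fl/fl/CAG-cre, in which a Cre recombinase driven by the broadly active CAG promoter is switched on by tamoxifen. All 6 samples received 1 μM tamoxifen for 48 h. The labels give 10% serum for the culture medium, and the study's general methods state more. By the methods, each group came from 3 mice. Because WT cells carried no Cre, effects of Cre activity and of Kansl1 loss cannot be told apart here.

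Kansl1 encodes a subunit of the NSL complex, which modifies histones at promoters, and the study sequenced these cells to ask how Kansl1 affects the expression of autophagy genes. SNAREs are small proteins, mostly anchored in membranes, that pull a vesicle and its target membrane together by winding into a shared bundle of helices. A complete bundle takes 1 helix of each of the kinds Qa, Qb, Qc and R; Qa-SNAREs are syntaxins (though Stx6 and Stx8 are Qc-SNAREs by their helix), R-SNAREs are mostly the VAMP proteins, and Qbc-SNAREs such as Snap23 bring the Qb and Qc helices in 1 protein. Each organelle uses its own set, a Sec1/Munc18 protein binds the syntaxin and guides assembly, and after fusion the ATPase Nsf and the SNAP adaptors pull the spent bundle apart.

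Expression is given in TPM (transcript abundance corrected for gene length, with an equal sum in every sample), so levels may be compared between genes. Depth was recovered as 17655495 to 27718259 reads assigned to genes per sample, lowest in KO 3 and highest in KO 7. The most abundant RNA, Gm23935, took 15.5% of the TPM in WT 4 and KO 7, 18.35% in WT 5 and 19.9% in KO 10. It took 24.3% in WT 8 and 25.6% in KO 3, which left less of the equal sum for other genes. The median-of-ratios factor, which scales each sample to the others, was lowest in KO 3 (0.872) and highest in WT 4 (1.09). Fits with such scaling and without this RNA are given below. The targeted gene, Kansl1, stood at 28.5, 26.7 and 24.4 TPM in WT 4, WT 5 and WT 8 and at 13.7, 15.8 and 14.4 TPM in KO 3, KO 7 and KO 10, 55.1% of the WT mean, with a log2 fold change of -0.82 (adjusted p = 0.000859, limma). The fibroblast genes Col1a1 (3080 to 5809 TPM) and Vim (2212 to 2522 TPM) were abundant in all 6 samples. Of 9 tested fibroblast markers 0 were called changed (9.03% lower and 1.64% higher over all tested genes). Some varied within a group. In WT 4, WT 5 and WT 8, Col3a1 was at 164, 400 and 333 TPM and Thy1 at 342, 637 and 561 TPM, whereas Vim was highest in WT 4. Of 7 tested macrophage markers, 1 (Lyz2) was called higher (1.64% of all tested genes). Every KO sample was above every WT sample for 6 of them (13.3% of all tested genes). The summed macrophage level was 36.5 to 41.4 TPM in WT and 76.8 to 153 TPM in KO, highest in KO 10. Ptprc, which marks all leukocytes, was at 0.257 TPM or less in every sample. It was also highest in KO 10, with 42 reads against 13 to 16 in each other sample. The summed level of 7 measured neuronal genes was 57.8 to 83.5 TPM in WT and 83.6 to 114 TPM in KO, most of it Tubb3. Among these genes Syn1, which encodes a synaptic vesicle protein, was called higher (8.04 to 11.2 TPM in WT and 18.8 to 20.9 TPM in KO, log2 fold change 0.92, adjusted p = 0.00135). Elavl4 had every KO sample below every WT sample (0.959 to 1.55 TPM in WT and 0.575 to 0.740 TPM in KO, log2 fold change -0.39) and was not called, and the synaptic genes Syp and Syt1 were at 0.173 TPM or less in every sample. KO 7 had Xist at 117 TPM and no Y-linked transcripts, whereas the other 5 samples expressed Y-linked genes. The part of these differences in the values below was not tested. In such bulk samples, fewer cells of a type and less RNA per cell cannot be told apart.

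Of the 42 genes, 41 had a mean of at least 1 TPM in 1 of the groups and were tested with the other genes that did (14799 in all). Snap25, the Qbc-SNARE of neuronal exocytosis, was the exception, with 1 to 3 reads in each sample. A gene was called changed at an adjusted p under 0.005 together with a log2 fold change above 0.5 or below -0.5, on log2(TPM + 1). Of the 41 genes, 6 fell in KO (14.6%), against 9.03% of all tested genes: Stxbp2, Vps45, Scfd2, Vamp7, Sec22c and Bet1. By limma, 0 of the 41 rose, against 1.64% of all tested genes. At an unadjusted p under 0.05, 15 genes were lower and 4 higher, against 27.2% and 12.2% of all tested genes. All KO samples lay below all WT samples for 17 genes (29.9% of all tested genes) and above them for 6 genes (13.3%). The median log2 fold change of the 41 genes was -0.11, against -0.07 over all tested genes. The summed expression of the 42 genes was 1158 ± 76.8 TPM in WT and 1125 ± 90.4 TPM in KO (SD, n = 3 each), 97.1% of WT.

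**Figure D1:**
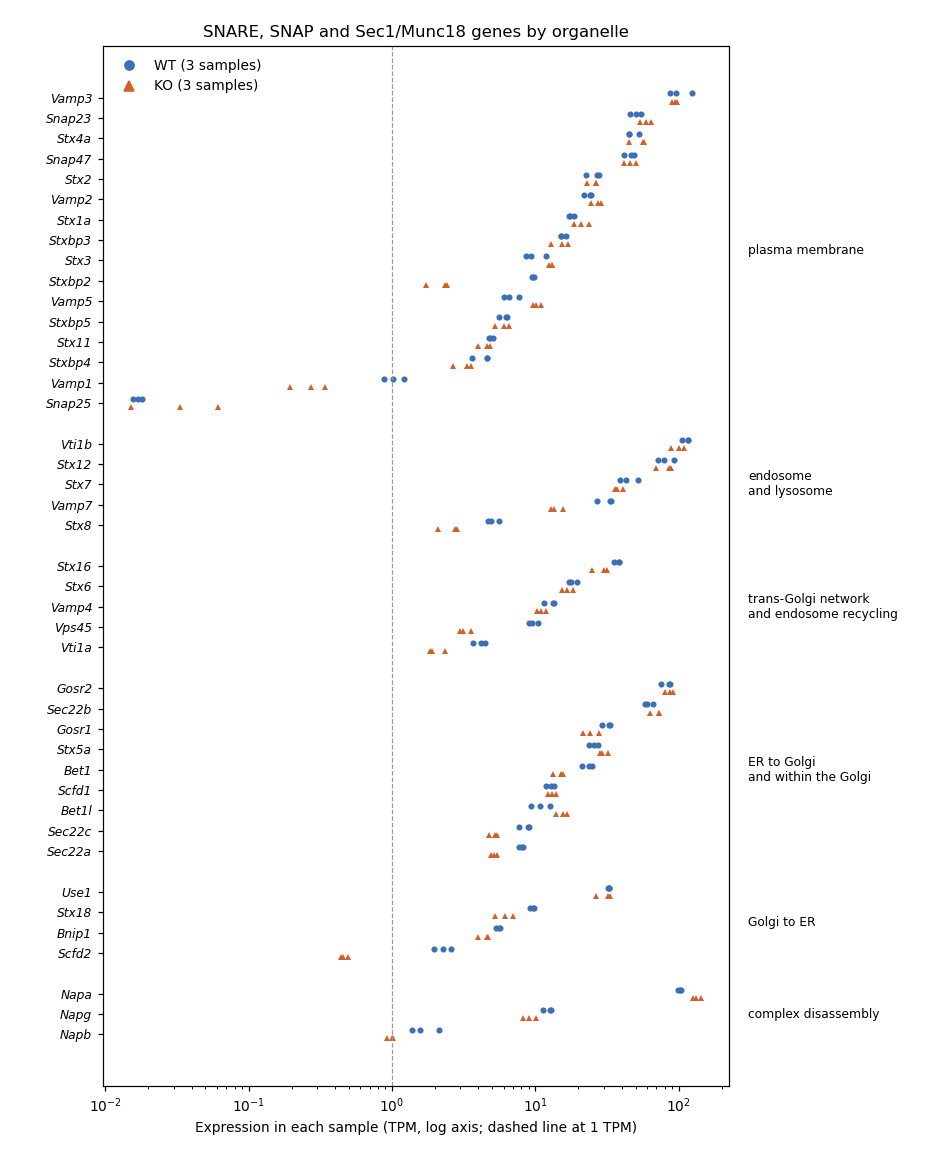
Expression of each of the 42 genes in TPM (log axis) in each of the 3 WT samples (circles) and 3 KO samples (triangles), grouped by organelle and ordered by WT mean, with a dashed line at 1 TPM. WT means ran from 0.0168 TPM for Snap25 to 113 TPM for Vti1b, and the groups separate most widely for Stxbp2, Scfd2, Vps45, Vamp7 and Vamp1.

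**Figure D2:**
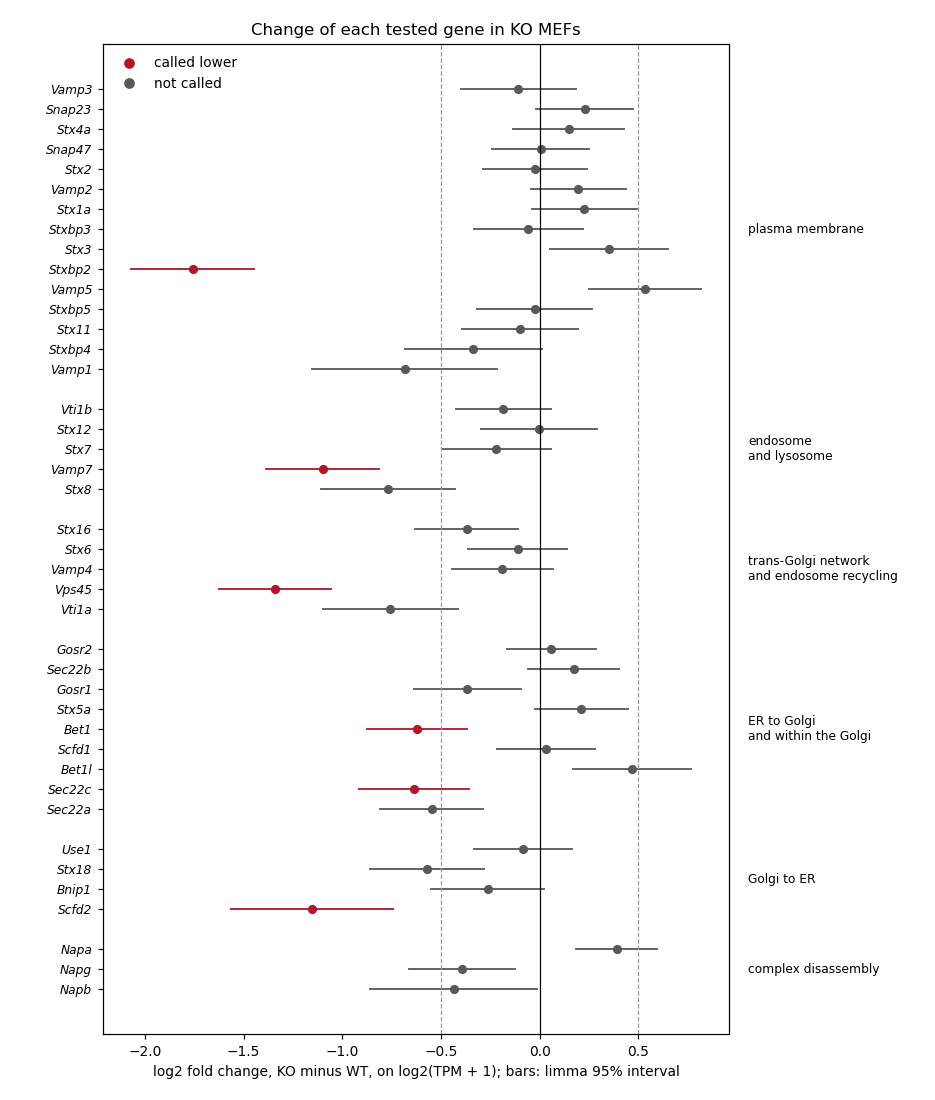
Log2 fold change of KO against WT on log2(TPM + 1) for the 41 tested genes, with the 95% interval of limma and dashed lines at -0.5 and 0.5. The 6 genes called lower range from -1.76 (Stxbp2) to -0.62 (Bet1), and the highest value is 0.53 (Vamp5), which was not called.

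Because 5 of the 6 genes that fell have a promoter window in RefSeq (assembly GRCm38.p6), those windows are shown here, each with the 250 bases before and 50 bases after the annotated start, read 5′ to 3′ on the gene's strand. Capitals mark any match, on either strand, to 6 motifs: the TATA element TATAAA, the CCAAT box CCAAT, the GC box GGGCGG, the E-box CACGTG, the ETS-type CCGGAAG and the NRF1-type GCGCATGC.
Stxbp2, chr8:3630859-3631158, plus strand: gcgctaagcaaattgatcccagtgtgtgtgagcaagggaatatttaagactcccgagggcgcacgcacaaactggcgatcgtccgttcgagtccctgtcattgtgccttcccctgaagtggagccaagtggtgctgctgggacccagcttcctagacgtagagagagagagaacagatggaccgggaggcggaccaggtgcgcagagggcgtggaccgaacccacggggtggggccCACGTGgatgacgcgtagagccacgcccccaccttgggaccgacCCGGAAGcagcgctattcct
Vps45, chr3:96058406-96058705, minus strand: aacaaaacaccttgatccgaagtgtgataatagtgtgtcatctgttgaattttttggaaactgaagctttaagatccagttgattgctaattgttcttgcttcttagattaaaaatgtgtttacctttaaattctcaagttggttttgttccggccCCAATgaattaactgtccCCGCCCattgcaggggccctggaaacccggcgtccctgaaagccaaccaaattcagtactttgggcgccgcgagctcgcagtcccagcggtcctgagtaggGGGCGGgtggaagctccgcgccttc
Scfd2, chr5:74531693-74531992, minus strand: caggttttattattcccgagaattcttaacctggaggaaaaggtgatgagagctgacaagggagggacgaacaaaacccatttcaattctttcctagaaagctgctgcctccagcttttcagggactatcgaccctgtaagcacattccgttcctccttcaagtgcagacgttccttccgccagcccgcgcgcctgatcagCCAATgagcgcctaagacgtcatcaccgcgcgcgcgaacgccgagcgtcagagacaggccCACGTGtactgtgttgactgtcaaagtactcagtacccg
Bet1, chr6:4086881-4087180, minus strand: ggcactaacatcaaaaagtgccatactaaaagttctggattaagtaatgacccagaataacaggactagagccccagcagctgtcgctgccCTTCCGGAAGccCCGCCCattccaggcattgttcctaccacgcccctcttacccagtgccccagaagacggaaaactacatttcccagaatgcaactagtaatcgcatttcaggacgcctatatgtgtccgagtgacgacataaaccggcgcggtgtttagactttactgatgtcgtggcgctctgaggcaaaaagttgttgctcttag
Sec22c, chr9:121704980-121705279, minus strand: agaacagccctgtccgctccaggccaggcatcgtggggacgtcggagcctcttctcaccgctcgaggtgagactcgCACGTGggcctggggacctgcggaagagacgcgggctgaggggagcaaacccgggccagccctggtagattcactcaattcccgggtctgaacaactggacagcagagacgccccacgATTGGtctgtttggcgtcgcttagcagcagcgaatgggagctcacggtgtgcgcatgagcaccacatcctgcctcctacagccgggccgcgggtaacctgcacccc
The E-box CACGTG, which reads the same on both strands, was present in 3 of these 5 windows (Stxbp2, Scfd2 and Sec22c). It occurred in 7 of 44 windows of the 37 fusion genes with a window (15.9%), in 10.0% of windows of all tested genes and in 7.15% of all 32851 windows. CCAAT was found in 3 of the 5 windows (37.9% of windows of tested genes), GGGCGG in 2 (63.4%) and CCGGAAG in 2 (17.6%). In the Bet1 window both CCGGAAG matches overlap, as they lie on opposite strands. TATAAA and GCGCATGC were in none of the 5, against 6.99% and 5.21% of windows of tested genes. Such a match is a description of the letters in the window and not of binding. The E-box was not limited to genes that fell: Napa, which had its higher values in KO, held 3 copies.

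At the plasma membrane, 15 of 16 genes were tested, with a median log2 fold change of -0.02. There, 1 fell and 0 rose (9.03% and 1.64% of all tested genes). The gene that fell was Stxbp2 (Munc18-2; chr8:3630955-3643644, plus strand), the Sec1/Munc18 partner of Stx3 and Stx11 in the release of granules. Stxbp2 stood at 9.79, 9.57 and 9.51 TPM in WT 4, WT 5 and WT 8 and at 1.72, 2.41 and 2.34 TPM in KO 3, KO 7 and KO 10. The groups were far apart and WT samples were nearly alike: 9.62 ± 0.149 against 2.16 ± 0.380 TPM (SD, n = 3 each), 22.4% of WT. Its log2 fold change came to -1.76 ± 0.14 (SE; adjusted p = 0.000146), the steepest fall among the 41 tested genes on this log2(TPM + 1) scale, and it rested on 330 to 375 reads per WT sample and 52 to 97 per KO sample.

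The syntaxins that Stxbp2 serves were not called. Stx3, a syntaxin of apical and granule exocytosis, stood at 11.9, 8.61 and 9.29 TPM in WT and at 12.5, 13.0 and 13.0 TPM in KO. All KO samples were above all WT samples, by a narrow margin over WT 4, and the gene was not called (log2 fold change 0.35, adjusted p = 0.0797). Stx11, a syntaxin of cytotoxic granules, was at 4.86 ± 0.165 TPM in WT and 4.48 ± 0.466 TPM in KO (adjusted p = 0.605), with overlapping groups. The other Sec1/Munc18 protein of the surface, Stxbp3 (Munc18c), which serves Stx4, was at 15.6 ± 0.764 TPM in WT and 15.0 ± 2.07 TPM in KO (adjusted p = 0.764).

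The other plasma membrane genes were not called, and most had overlapping groups. The constitutive fusion set of the fibroblast surface is Stx4 (Stx4a in the table) with Snap23 and Vamp3 or Vamp2. Vamp3, the R-SNARE of recycling endosomes, was the most abundant gene of the group, at 123, 95.7 and 86.9 TPM in WT and 89.2, 97.5 and 93.8 TPM in KO. The groups overlapped, WT 4 alone was high, and the log2 fold change was -0.11 (adjusted p = 0.571). Vamp3 made up 42.7% of the summed expression of the 7 R-SNAREs among the 42 genes in WT and 41.5% in KO, a sum that leaves out Ykt6 and Vamp8. Stx4a (log2 fold change 0.15), Snap23 (0.23), Snap47 (0.00) and Vamp2 (0.20) had adjusted p-values of 0.156 to 0.979. Stx1a, the neuronal syntaxin (17.8 TPM in WT), and Stx2 (25.7 TPM) had log2 fold changes of 0.23 and -0.03 and were not called. Stxbp5 (tomosyn), which blocks SNARE assembly, and Stxbp4, which binds Stx4, had values of -0.02 and -0.34, neither called.

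At the plasma membrane, all KO samples lay below all WT samples for 3 of the 15 tested genes and above them for 3. Over all tested genes these shares were 29.9% and 13.3%. Besides Stxbp2 and Stx3, the groups did not overlap for Stxbp4 (KO below WT) and for 3 R-SNAREs. Vamp2 was barely apart, at 21.8 to 24.4 TPM in WT and 24.5 to 28.9 TPM in KO. Vamp5, known from muscle, stood at 6.06, 7.71 and 6.54 TPM in WT and at 10.1, 10.98 and 9.60 TPM in KO. Every KO sample was above every WT sample, at 151% of the WT mean, and the log2 fold change of 0.53 ± 0.13 (SE) had an adjusted p of 0.0126, which missed the threshold. It was called higher under voom, a count-based form of limma run on the recovered reads, and under median-of-ratios scaling of TPM, which called 3.98% and 3.2% of all tested genes higher. Vamp1 (synaptobrevin 1) stood at 1.21, 0.886 and 1.02 TPM in WT and at 0.270, 0.193 and 0.342 TPM in KO, 25.8% of WT. All KO samples were below all WT samples, on 79 to 100 reads in WT and 19 to 31 in KO. On log2(TPM + 1), which compresses values near 1 TPM, its log2 fold change was -0.68 (adjusted p = 0.0363), and it was called lower under voom (-1.91) and without a variance trend.

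**Figure D3:**
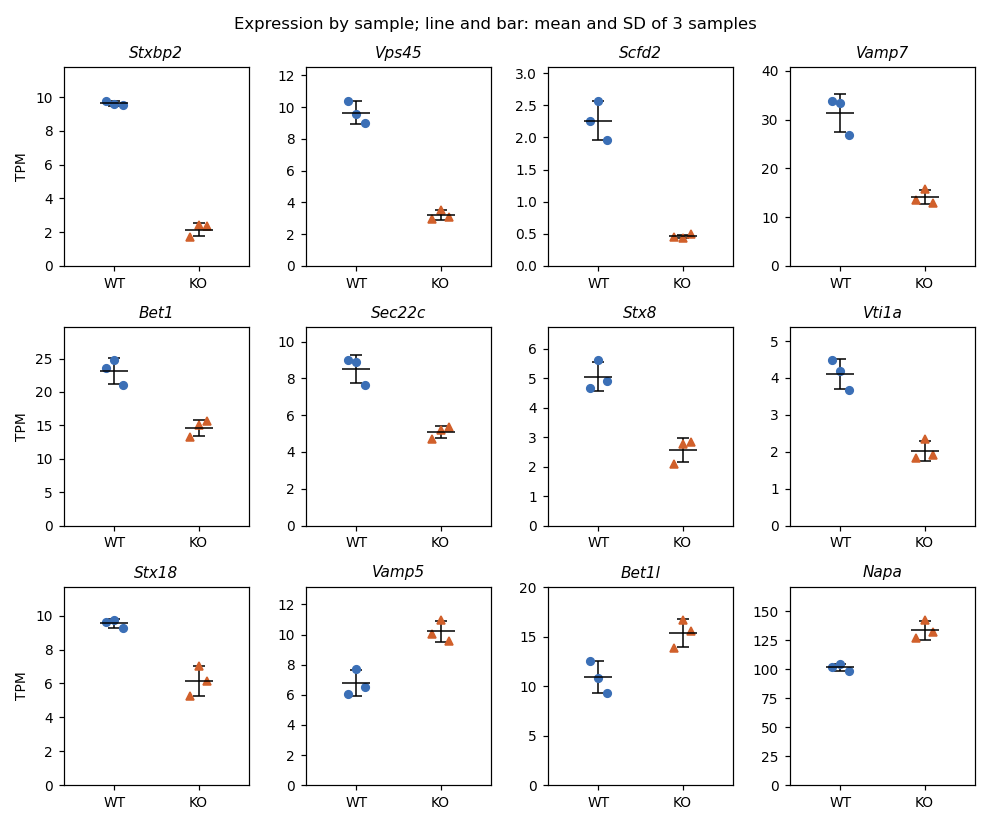
Expression in TPM (linear axes starting at 0) of 12 genes in each of the 3 WT (circles) and 3 KO (triangles) samples, with the mean and SD of each group. The first 9 genes, from Stxbp2 to Stx18, have every KO sample below every WT sample, whereas Vamp5, Bet1l and Napa have every KO sample above.

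In endosomes and lysosomes, all 5 genes were tested, with a median log2 fold change of -0.22. Among them 1 fell and 0 rose (9.03% and 1.64% of all tested genes). Late endosomes fuse with each other and with lysosomes through Stx7, Vti1b and Stx8 together with Vamp7 or Vamp8. The R-SNARE Vamp7, which also serves lysosome exocytosis, stood at 33.9, 33.3 and 26.8 TPM in WT 4, WT 5 and WT 8 and at 13.5, 15.7 and 13.0 TPM in KO 3, KO 7 and KO 10. The highest KO sample was well below the lowest WT sample, and the KO mean was 44.9% of WT, with a log2 fold change of -1.10 ± 0.13 (SE; adjusted p = 0.000487). Of the 6 genes that fell, Vamp7 was the most abundant, and its share of the summed expression of the same 7 R-SNAREs was 13.1% in WT and 6.23% in KO. In the gene annotation used here, Vamp7 lies on a scaffold assigned to the X chromosome but not placed along it. KO 7, the sample with Xist, had the highest Vamp7 value of the KO group, and Vamp7 was called lower also when KO 7 was left out.

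The Q-SNARE partners of Vamp7 did not pass the thresholds. Stx8, the Qc-SNARE of the set, stood at 4.65, 5.61 and 4.89 TPM in WT and at 2.10, 2.76 and 2.82 TPM in KO. All KO samples were below all WT samples, at 50.7% of the WT mean, and the adjusted p of 0.00512 lay just above 0.005 (log2 fold change -0.77). Vti1b, a Qb-SNARE and the most abundant of the 42 genes in WT, stood at 117, 116 and 106 TPM in WT and at 87.9, 109 and 101 TPM in KO. The groups overlapped (log2 fold change -0.19, adjusted p = 0.230). Stx7, the syntaxin of late endosomes, was at 85.0% of WT with overlapping groups (adjusted p = 0.219). Stx12, the syntaxin of recycling endosomes, was at 81.4 ± 10.99 TPM in WT and 81.2 ± 10.2 TPM in KO (SD, n = 3 each). The summed expression of this group was 248 to 301 TPM in WT and 210 to 257 TPM in KO.

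At the trans-Golgi network, 5 of 5 genes were tested, with a median log2 fold change of -0.37. In this group 1 fell and 0 rose (9.03% and 1.64% of all tested genes). This set returns material from endosomes to the Golgi: the syntaxin Stx16 pairs with Vti1a, Stx6 and Vamp4, and Vps45 is the Sec1/Munc18 protein that holds Stx16. Vps45 (chr3:95999832-96058466, minus strand) stood at 10.4, 9.54 and 9.01 TPM in WT and at 2.96, 3.54 and 3.12 TPM in KO. The lowest WT sample was far above the highest KO sample. The KO mean was 33.2% of WT, with a log2 fold change of -1.34 ± 0.13 (SE; adjusted p = 0.000239).

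The syntaxin of Vps45 was lower to a smaller extent. Stx16 stood at 38.4, 38.5 and 35.2 TPM in WT and at 24.7, 31.5 and 30.3 TPM in KO, with all KO samples below all WT samples (77.1% of WT, log2 fold change -0.37, adjusted p = 0.0410), which was not a call. Vti1a, the Qb-SNARE, stood at 4.48, 4.19 and 3.67 TPM in WT and at 1.83, 2.34 and 1.90 TPM in KO. Its groups were apart, at 49.2% of WT, and its adjusted p of 0.00570 (log2 fold change -0.76) missed the threshold by little. Stx6 and Vamp4, the Qc- and R-SNARE, had overlapping groups at 92.2% and 86.7% of WT (adjusted p = 0.493 and 0.250). The summed expression of the 5 genes was 77.1 to 85.0 TPM in WT and 55.0 to 67.4 TPM in KO, 75.4% of WT, the lowest ratio of the 6 organelle groups.

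Between the endoplasmic reticulum (ER) and the Golgi, and within the Golgi, 9 of 9 genes were tested, with a median log2 fold change of 0.03. On this route 2 fell and 0 rose (9.03% and 1.64% of all tested genes). Both calls, Bet1 and Sec22c, were lost when any 1 sample was left out. Vesicles from the ER fuse through Stx5 (Stx5a in the table), Gosr2, Bet1 and Sec22b, and traffic within the Golgi uses Stx5 with Gosr1, Bet1l and Ykt6. Bet1 (chr6:4076899-4086972, minus strand), the Qc-SNARE of the first set, stood at 23.6, 24.8 and 21.03 TPM in WT and at 13.3, 15.0 and 15.6 TPM in KO. All KO samples were below all WT samples, at 63.4% of WT (log2 fold change -0.62 ± 0.11, SE, adjusted p = 0.00354). The Bet1 call was also lost with all genes fitted (adjusted p = 0.0119, limma) and without a variance trend (0.00763). Its partners Stx5a, Gosr2 and Sec22b were not called, and their KO means were above their WT means. Gosr2, the most abundant gene of the group, stood at 85.9, 87.0 and 75.2 TPM in WT and 80.5, 91.1 and 86.9 TPM in KO, with overlapping groups (log2 fold change 0.06, adjusted p = 0.698). Stx5a and Sec22b were at 116% and 113% of WT (adjusted p = 0.171 and 0.247).

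Bet1l (GS15), the Qc-SNARE of the second set and a relative of Bet1, had the opposite sign. It stood at 12.6, 10.8 and 9.36 TPM in WT and at 13.9, 16.7 and 15.6 TPM in KO. All KO samples were above all WT samples, at 141% of WT, with a log2 fold change of 0.47 (adjusted p = 0.0277), short of both thresholds; voom and median-of-ratios scaling called it higher. Bet1l shares 390 bp of exon with Ric8a on the opposite strand, at 24.9 TPM in WT and 30.2 TPM in KO (log2 fold change 0.27), and reads of such an overlap cannot be assigned without strand. Gosr1 (GS28), the Qb-SNARE of that set, stood at 33.3, 32.8 and 29.0 TPM in WT and at 21.6, 27.9 and 23.9 TPM in KO. Its groups did not overlap (77.1% of WT, log2 fold change -0.37, adjusted p = 0.0476), which was not a call. Shorter shared stretches on the opposite strand were annotated for Snap47 (307 bp, with Jmjd4) and Gosr2 (149 bp), among others. None of the 6 genes that fell shares exon sequence with another annotated gene.

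Sec22a and Sec22c resemble Sec22b but lack its SNARE motif. Sec22c fell, and Sec22a and Sec22b were not called. Sec22c (chr9:121680045-121705490, minus strand) stood at 8.99, 8.87 and 7.63 TPM in WT and at 4.72, 5.21 and 5.36 TPM in KO. The groups did not overlap, and the KO mean was 60.0% of WT (log2 fold change -0.64 ± 0.12, SE, adjusted p = 0.00492, just inside the threshold). The Sec22c call was also lost with all genes fitted (adjusted p = 0.0191, limma) and without a variance trend (0.00594). Sec22a stood at 8.17, 8.10 and 7.69 TPM in WT and at 5.16, 4.90 and 5.40 TPM in KO. Samples within a group were close, the groups were apart at 64.5% of WT, and Sec22a was just outside (log2 fold change -0.55, adjusted p = 0.00748). Scfd1 (Sly1), the Sec1/Munc18 protein of Stx5, was at 12.7 ± 0.861 TPM in WT and 13.1 ± 0.840 TPM in KO (SD, n = 3 each; adjusted p = 0.850).

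For the return route from Golgi to ER, 4 of 4 genes were tested, with a median log2 fold change of -0.42. On that route 1 fell and 0 rose (9.03% and 1.64% of all tested genes). Stx18, Bnip1 and Use1 are the Qa-, Qb- and Qc-SNAREs of the ER membrane and pair with Sec22b. The gene that fell was Scfd2 (chr5:74204816-74531759, minus strand), a Sec1-family protein related to Scfd1. Scfd2 stood at 2.26, 2.57 and 1.96 TPM in WT and at 0.453, 0.441 and 0.492 TPM in KO. The KO samples were nearly alike at 20.4% of WT, the lowest percentage of the 6 genes that fell, on 150 to 185 reads in WT and 27 to 36 in KO. Its log2 fold change on log2(TPM + 1) was -1.15 ± 0.18 (SE; adjusted p = 0.00187), and it was -2.06 with a pseudocount of 0.1 TPM and -2.20 under voom. The call was lost when all genes of the table were fitted (adjusted p = 0.00570) and when any 1 sample was left out (0.00550 to 0.0101).

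Stx18 stood at 9.65, 9.76 and 9.25 TPM in WT and at 5.27, 7.01 and 6.12 TPM in KO. Its groups did not overlap (64.2% of WT), and it was not called (log2 fold change -0.57, adjusted p = 0.00968). Stx18 shares exon sequence on the opposite strand with Nsg1 (574 bp), which was at 28.9 TPM in WT and 23.9 TPM in KO with overlapping groups, and with Gm42858 (908 bp), at 0.145 TPM or less in every sample. Use1, the most abundant gene of the route, stood at 32.7, 32.1 and 32.5 TPM in WT and at 26.6, 33.2 and 32.2 TPM in KO. Only KO 3 lay apart, the sample with the lowest median-of-ratios factor. The log2 fold change of Use1 was -0.09 (adjusted p = 0.602, limma), and 0.017 under median-of-ratios scaling. Bnip1 was at 80.4% of WT with all KO samples below all WT samples (adjusted p = 0.155).

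The SNAP adaptors, which couple Nsf to spent SNARE bundles, had 0 of 3 genes called, with log2 fold changes of opposite signs. Over all tested genes, 9.03% fell and 1.64% rose. Napa (alpha-SNAP) stood at 102, 104 and 98.8 TPM in WT and at 127, 143 and 132 TPM in KO. All KO samples were above all WT samples, at 132% of WT, and the log2 fold change of 0.39 ± 0.09 (SE; adjusted p = 0.0120) was below 0.5. Napg (gamma-SNAP) stood at 12.7, 12.8 and 11.3 TPM in WT and at 8.22, 10.0 and 9.10 TPM in KO (74.3% of WT, log2 fold change -0.39, adjusted p = 0.0347). Napb (beta-SNAP, mainly of the brain) stood at 1.38, 2.12 and 1.57 TPM in WT and at 0.994, 1.01 and 0.921 TPM in KO (57.7% of WT, log2 fold change -0.44, adjusted p = 0.114). For Napg and Napb every KO sample was below every WT sample. Napa accounted for 87.9% of summed SNAP expression in WT and 93.0% in KO, so the summed level was 112 to 119 TPM in WT and 136 to 154 TPM in KO. The ATPase Nsf itself was at 21.6 ± 2.10 TPM in WT and 20.04 ± 1.45 TPM in KO (adjusted p = 0.531).

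By protein family rather than by organelle, 3 of the 6 calls were Sec1/Munc18 genes. Of the 5 genes of that family, 3 fell (Stxbp2, Vps45 and Scfd2), against 9.03% of all tested genes, and Stxbp3 and Scfd1 were not called. The Scfd2 call was lost when any 1 sample was left out. The summed level of these 5 genes was 47.4 to 51.7 TPM in WT and 30.2 to 37.2 TPM in KO, 68.0% of WT. Within that sum, Stxbp2 went from 19.3% to 6.36% and Vps45 from 19.4% to 9.46%, while Stxbp3 went from 31.3% to 44.3%. Of the 10 Qa-SNAREs, 0 were called and their summed level in KO was 98.6% of WT. The count for Qb-SNAREs was 0 of 5, for Qc-SNAREs 1 of 5 (Bet1), for R-SNAREs 1 of 7 (Vamp7), for the tested Qbc-SNAREs 0 of 2 and for the relatives of Sec22b 1 of 2 (Sec22c). Over all tested genes, 9.03% were called lower and 1.64% higher. The Bet1 and Sec22c calls were also lost when any 1 sample was left out. In each of the endosomal, trans-Golgi and ER sets named above, a called gene stood beside syntaxins that were not called. Not called does not mean unchanged. Stx8, Stx18 and Stx16 were at 50.7%, 64.2% and 77.1% of WT, with all KO samples below all WT samples. For Stx7 and Stx6 the groups overlapped, and Stx5a had all KO samples above all WT samples. Most genes were not called, as 9.03% of all tested genes were called lower. These are counts over a few genes in families of unequal size, and no difference between families was tested.

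Calls near the threshold moved with the processing. Vamp7 was called in 8 of 8 analyses of all 6 samples, and Stxbp2 and Vps45 in the 7 of 7 in which they were kept. Bet1, Sec22c and Scfd2 were called in 6 of 8, 5 of 7 and 6 of 7 of them. When each sample was left out in turn, Stxbp2, Vamp7 and Vps45 were called in 6 of 6 fits and Bet1, Sec22c and Scfd2 in 0 of 6, with adjusted p-values of 0.00619 to 0.0196, 0.00931 to 0.0259 and 0.00550 to 0.0101, and their log2 fold changes stayed between -1.22 and -0.56. Voom called 11 of the 41 genes lower and 2 higher (12.6% and 3.98% of all tested genes). Median-of-ratios scaling called 8 lower and 2 higher (9.74% and 3.2% of all tested genes). Stx8 and Vti1a were called lower in 4 of 7 analyses and Sec22a and Stx18 in 2 of 7.

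Tethering complexes catch vesicles before SNAREs engage, and most SNARE sets above have a partner tether. Over 5 lists of tether subunits, 8 of 32 tested genes fell (25.0%, against 9.03% of all tested genes) and 0 rose (1.64% of all tested genes), with a median log2 fold change of -0.27 (-0.07 over all tested genes). The exocyst, which brings vesicles to the plasma membrane for Stx4 and Snap23, had 3 of 9 tested subunits lower: Exoc1 (log2 fold change -0.92), Exoc6 (-0.90) and Exoc7 (-0.57). GARP and EARP, the tethers of the Stx16 set and of recycling endosomes, had 2 of 5 lower, Vps53 (-1.07) and Vps52 (-0.90). HOPS and CORVET, the tethers of the Stx7 set, had 2 of 7 lower, Vps39 (-0.92) and Vps41 (-0.60), not counting their subunits Vps33a and Vps33b, which are listed with the Sec1/Munc18 genes. The COG complex of the Golgi had 1 of 8 lower, Cog7 (-1.19), and the NRZ complex of the Stx18 set 0 of 3. The lowest summed expression relative to WT was that of GARP and EARP, at 71.1 to 83.2 TPM in WT and 44.3 to 51.2 TPM in KO (61.0%).

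Among 9 tested SNAREs of autophagosome fusion and other SNARE and Sec1/Munc18 genes outside the 42, 2 fell: Stx17, the syntaxin of autophagosomes (13.5 ± 1.12 TPM in WT and 6.21 ± 0.958 TPM in KO, log2 fold change -1.01, adjusted p = 0.000803), and Vps33a, the Sec1/Munc18 subunit of HOPS (-0.88, adjusted p = 0.000691). Of all tested genes, 9.03% fell. Not called were Snap29 (-0.19), Vamp8 (-0.46) and Ykt6 (0.10). Vamp8, which can stand in for Vamp7 in the Stx7 set, was at 72.2% of WT (adjusted p = 0.0210). Of 12 listed genes for priming and calcium sensing in regulated exocytosis, 3 reached 1 TPM and 0 were called.

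**Figure D4:**
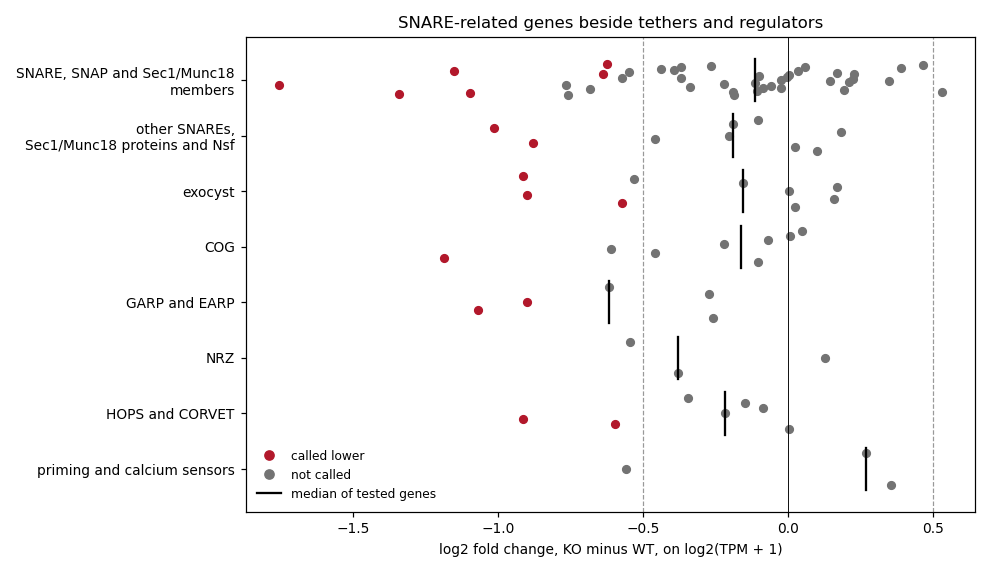
Log2 fold change of each tested gene for the 41 fusion genes and 7 lists of tethers, regulators and other SNARE genes. Genes called lower are red and genes not called are grey. Black lines mark the median of each list, and dashed lines lie at -0.5 and 0.5. Each list holds genes on both sides of 0 except GARP and EARP, whose 5 genes are all below 0, and no gene was called higher.

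Among the 41 tested genes, the log2 fold change was related to their expression and size, as a description without a test, since points share the same 6 libraries. The Spearman correlation with the WT mean was 0.46 over the 41 genes and -0.04 over all tested genes, so that lower values lay among the less abundant fusion genes. The Spearman correlation with the length of the gene from first to last exon was -0.35 over the 41 genes and -0.09 over all tested genes. The called genes were not confined to long ones. Of the 20 genes with the longer span 2 fell, and of the 21 with the shorter span 4 fell, against 9.03% of all tested genes. The median log2 fold change was -0.278 for the longer span and -0.0851 for the shorter span. Among these calls, those of Bet1, Sec22c and Scfd2 were lost when any sample was left out. No difference between the groups by span was tested.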

How the data were processed

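RNA from 3 WT and 3 KO MEF cultures was sequenced, and samples were grouped by their titles. Per the study's methods the authors used STAR for alignment to mm10 and DESeq2 for testing. The counting program was not given in the sources used here, and the kit does not mark strand. The submitters' processing notes also name Bowtie 0.12.2, with no role. The authors deposited 1 table with expression as TPM per sample. It also holds a log2 fold change and an adjusted p-value of KO against WT per gene that the authors deposited, and these were not used.

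All 26898 gene identifiers matched GENCODE M21. TPM times merged exon length was a whole multiple of 1 step for 100% of the values checked per sample (tolerance 0.05 reads), which gave reads assigned to genes of 17655495 to 27718259 per sample. Genes with a group mean of at least 1 TPM (14799) were fitted on the log2(TPM + 1) scale in limma 3.58.1 (R 4.3.3), as 2 groups without covariates and with a variance trend. The Benjamini-Hochberg adjustment was made over all of them, and the thresholds (0.005 and 0.5) were those of the study. The log scale understates changes of low genes. The fit was tested on simulated data. Alternatives changed the pseudocount, filter, scaling, variance trend, measure (voom on recovered reads), threshold and samples used. Genes and lists were chosen with earlier results of these data known. Values of each sample are given for genes called, at an unadjusted p under 0.05, called under an alternative, or highest in their organelle group; other genes are given by range or mean. Of genes outside the 42, this rule named Kansl1, Stx17, Snap29, Vamp8, Ykt6, Nsf and called genes of the tether, regulator and other SNARE lists. Marker genes and genes that share exons were named in addition. The marker lists for epithelial, endothelial, muscle, and neural crest and glial cells had 0 genes called by limma; 2 epithelial genes (Krt8, Krt18) and 1 endothelial gene (Kdr) were higher at an unadjusted p under 0.05 with all KO samples above all WT samples, and summed levels in KO were 126% (epithelial), 192% (endothelial), 86.1% (muscle) and 81.7% (neural crest and glia) of WT. Vamp7, Napg, Snap25, Vamp2 and Vamp3 had no promoter window in the RefSeq table used.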

Additional observations from a re-analysis of the deposited data

How the results depend on the processing

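The number of the 41 genes called changed (6 as reported, all lower) was 3 when all 26898 genes were fitted, 2 at a group mean of at least 10 TPM, 10 under median-of-ratios scaling, 10 without the most abundant RNA, 13 under voom and 12 at an adjusted p under 0.05. The number called lower was 3, 2, 8, 10, 11 and 11 in the same order. Over all genes the number called lower moved as well, from 1337 of 14799 to 286 of 26898, 1160 of 8230, 1441 of 14799, 1750 of 14798, 1871 of 14799 and 2453 of 14799. The number called higher (0 as reported) was 2 under median-of-ratios scaling, 2 under voom and 1 at an adjusted p under 0.05. Leaving out 1 sample gave 3 to 3 changed, 3 to 3 lower and 0 higher, whichever of WT 4, WT 5, WT 8, KO 3, KO 7 or KO 10 was left out, against 617 to 938 lower over all genes. Over the lists of tethers, of regulators and of other SNARE and Sec1/Munc18 genes, 10 of 44 tested genes were called lower as reported. That number was 3 when all genes were fitted and 6 to 7 with 1 sample left out. The median log2 fold change of the tested genes (-0.11) was -0.0040 at 10 TPM and -0.014 under median-of-ratios scaling, and -0.213 to -0.0750 with 1 sample left out. Fewer genes were tested at 10 TPM; for the other changes the cause was not tested.

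Genes near 0 changed sign. Under median-of-ratios scaling and voom, log2 fold changes were 0.076 and 0.060 for Stx2, 0.041 and 0.033 for Stxbp3, 0.065 and 0.060 for Stxbp5, 0.0998 and 0.086 for Stx12 and 0.017 and 0.0033 for Use1; Stx12 was at 0.013 without the most abundant RNA. With 1 sample left out the ranges were -0.111 to 0.044 for Stx2, -0.060 to 0.068 for Snap47, -0.213 to 0.035 for Vamp3, -0.144 to 0.044 for Stxbp3, -0.089 to 0.049 for Stxbp5, -0.088 to 0.102 for Stx12, -0.0065 to 0.107 for Gosr2, -0.014 to 0.079 for Scfd1 and -0.144 to 0.011 for Use1. Over single genes and alternatives on all 6 samples, 274 results kept direction and side of the threshold, 24 passed it in addition, 5 no longer passed and 11 changed sign; with 1 sample left out these numbers were 212, 0, 18 and 15. No paired analysis was possible because the titles of the WT and KO samples share no numbers. With 3 samples a group, and 27 to 36 KO reads for Scfd2 and 19 to 31 for Vamp1, precision is lowest for the least abundant genes.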
